A study of Mus musculus with 9 samples.

Results

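Oligodendrocyte progenitor cells (OPCs) are the dividing cells of the brain and spinal cord from which myelin-forming oligodendrocytes arise, and PDGF is their main growth factor. PDGF-AA acts through PDGF receptor alpha, whereas PDGF-BB binds both PDGF receptors. Receptor binding switches on RAS and ERK kinases and PI3 kinase, and in OPCs it favours division and holds back differentiation. Forced PDGF-BB expression together with loss of p53 is a widely used way to make glioma in mice.

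The comparison here set 3 libraries of PDGF-BB p53-null OPCs (group BB-p53n DMSO) against 3 libraries of p53-null OPCs (group p53n), 6 of the 9 libraries in the series, chosen by their labels. All 6 carried the genotype Trp53 -/- and came from primary mouse OPC lines grown in SATO, a serum-free medium, with 10 ng/mL PDGF-AA. That medium also held forskolin, an activator of adenylyl cyclase. The BB-p53n DMSO cells expressed PDGF-BB and received the vehicle DMSO at a dilution of 1 in 10000, and the p53n cells were labelled control with no vehicle. The series' other 3 libraries (BB-p53n EZH2i) were PDGF-BB cells given 5 µM tazemetostat, an inhibitor of the histone methyltransferase EZH2, for 48 hours. They entered the fit, and their levels are quoted below only for reference. PDGF-BB, the vehicle and the cell line changed together between the groups, so their effects cannot be told apart. The labels do not say how PDGF-BB was introduced, how many lines or animals stood behind a group, or whether its 3 libraries came from separate cultures. The p-values therefore reflect the spread among these 6 and the other 3 libraries alone, and that spread may be technical.

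Total counts were between 22628267 and 27979456 fragments in the p53n libraries and between 32727333 and 34557109 in the BB-p53n DMSO libraries. Levels are given as CPM, which are counts relative to library size after edgeR's TMM scaling, and 3 counts in 1 library corresponded to 0.0888 to 0.126 CPM. Mitochondrial genes took 4.46% to 5.76% of the counts in p53n and 2.44% to 2.62% in BB-p53n DMSO. The OPC markers other than Matn4 were detected in both groups, Sox10 at a low level in p53n (below). Matn4 was not tested, with 8 counts in all of p53n and 6 in all of BB-p53n DMSO. The summed level of the 10 markers was 6712 to 7136 CPM in p53n and 6529 to 6549 CPM in BB-p53n DMSO. Of the 9 tested, 4 were called higher and 4 lower. Pdgfra, the receptor for PDGF-AA and an OPC marker, was at 1583, 1488 and 1404 CPM in p53n and at 957, 996 and 989 CPM in BB-p53n DMSO. Endogenous Pdgfb was not tested, with 1 count in all of p53n and 16 in all of BB-p53n DMSO, so the PDGF-BB label has no check in these counts. Trp53 was at 7.34 ± 0.854 (SD, n = 3) CPM in p53n and 13.6 ± 1.45 in BB-p53n DMSO. The labels do not say which part of Trp53 was deleted, so these reads do not check the genotype.

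Sex-linked genes differed between the groups. Xist, the noncoding RNA that silences 1 X chromosome in female cells, was at 2777, 3064 and 3101 CPM in p53n and at 54.8, 46.2 and 65.0 CPM in BB-p53n DMSO. Kdm5d, a histone demethylase gene on the Y chromosome, was at 0.278, 0.291 and 0.925 CPM in p53n and at 48.3, 41 and 43.8 CPM in BB-p53n DMSO. The Y-linked genes Ddx3y, Eif2s3y and Uty were likewise higher in the PDGF-BB libraries, and all 5 tested Y-linked genes were called higher. Kdm6a, an X-linked demethylase gene that escapes X inactivation, fell from 109.8 ± 2.83 to 44.1 ± 3.57 CPM (log2 fold change -1.32, SE 0.09). Among the 7 tested X-linked partners of Y genes, 1 was higher and 3 were lower. Without p53n replicate 1 these counts were 2 and 1, and without p53n replicate 3 they were 2 and 2. Every difference reported below lies between cultures that also differed in these genes.

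The cultures also differed along chromosomes. Of 1301 tested genes on chromosome 11, 692 were higher and 248 lower, and their median log2 fold change stood 0.42 above that of the other autosomes. On chromosome 14, 107 of 568 were higher and 325 lower, with a median 0.49 below the others. The X chromosome's median lay 0.08 below. The chromosome is not given for every gene named below. Among others, Lif, Gjc1, Hlf, Slc25a10 and Gaa, which rose, and Gfap, Gpx3 and Thra, which fell, also lie on chromosome 11.

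Of 17001 tested genes, 6008 (35.3%) were higher and 5772 (34%) lower in BB-p53n DMSO at an adjusted p under 0.05 in edgeR's quasi-likelihood test, 69.3% in all. A difference of at least 2-fold was reached by 2151 higher genes (12.7%) and 2912 lower genes (17.1%). At least 4-fold, 674 were higher and 1064 lower. A further step to 16-fold left 104 and 234. In 12940 genes (76.1%) the lowest library of one group lay above the highest of the other. With so many genes called, a count of called members is read below against these shares, and a list near 35.3% higher and 34% lower does not stand out from the rest. Most list members are protein-coding. Of the 13506 tested protein-coding genes, 39.9% were higher and 33% lower, with a median log2 fold change of 0.05. Against that class, a list's excess of higher calls is smaller than against all genes.

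The direction of change went with the level of the gene, in part by construction. The average level was taken over all 9 libraries, most of them of PDGF-BB cells. A gene higher in those cells is therefore moved toward a higher range, and a lower gene toward a lower one. This limit holds for every share by level given below. Among genes with an average of at least 7 log2 CPM, 56.4% were higher and 23.2% lower. Between 1 and 3 log2 CPM, 27.4% were higher and 44.3% lower, and under 1 log2 CPM 12% and 39.7%. Of the sets below, only the zinc finger (Zfp) list and the long noncoding RNA genes were compared with other genes by range of level. Genes higher by at least 2-fold took 5.29% to 5.36% of all counts in the p53n libraries and 15.1% to 15.3% in the BB-p53n DMSO libraries. Genes lower by at least 2-fold took 13.5% to 14.5% in p53n and 4.43% to 4.67% in BB-p53n DMSO. Both sets were chosen by their change in these same libraries, so the direction of these shifts in share was fixed by the choice. The PDGF-BB libraries were deeper, yet 16235 to 16483 genes reached 10 counts there against 16709 to 17163 in p53n.

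**Figure D1:**
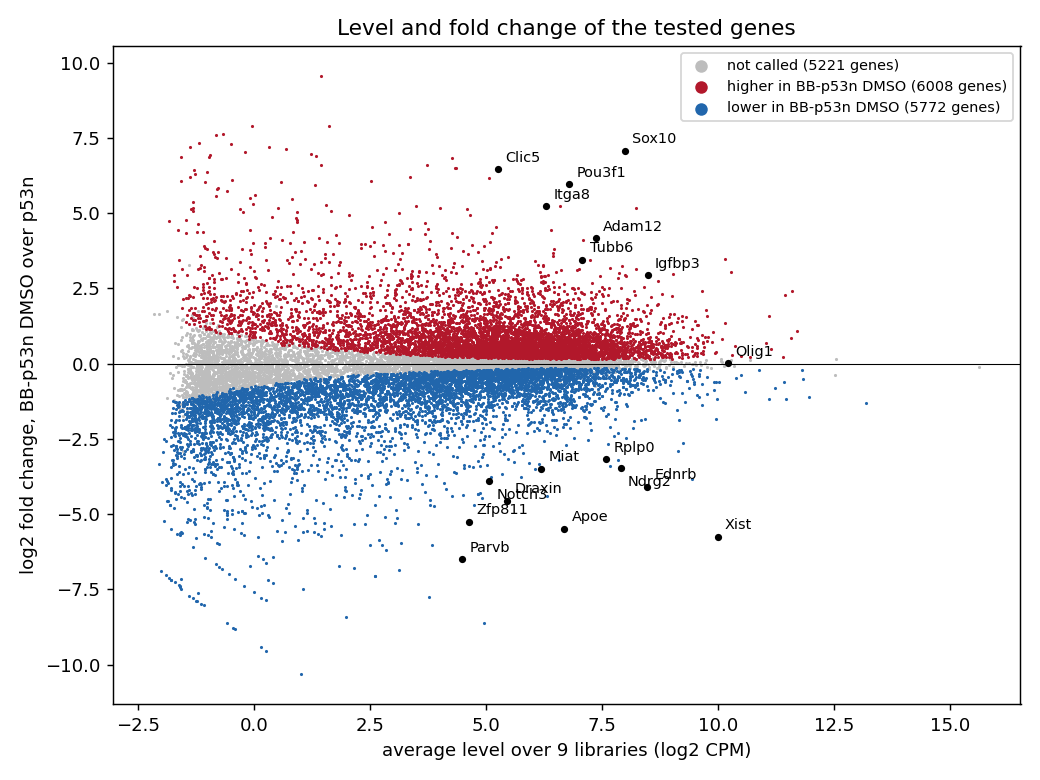
Each point is 1 of 17001 tested genes, with the average level over 9 libraries in log2 CPM on the x axis and the log2 fold change of BB-p53n DMSO over p53n on the y axis. Red points (6008) were called higher, blue points (5772) lower and grey points (5221) were not called; black points are named genes, from Sox10 at 7.07 to Parvb at -6.50.

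Genes were named by a rule on level: the largest rises and falls among protein-coding genes in each range of average level. In the highest range, the leading rise was in Sox10, a transcription factor gene of oligodendrocyte and neural crest lineages (chromosome 15, 79039108 to 79049440, GRCm39). It was at 2.36, 1.87 and 2.40 CPM in p53n and at 297, 317 and 284 CPM in BB-p53n DMSO, a log2 fold change of 7.07 (SE 0.10, adjusted p = 2.9e-21). The gene was detected at a low level in every p53n library, and every PDGF-BB library was far above them. Of the other OPC factors, Olig2 was at 534 ± 21.0 CPM in p53n and 805 ± 20.3 in BB-p53n DMSO, and Olig1 at 999.7 ± 58.4 and 1019 ± 3.98.

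The other leading rises among abundant genes were in signalling and cell shape genes. Spry4 and Dusp6, feedback inhibitors of ERK signalling, and Ccnd1, cyclin D1, were among them, with log2 fold changes of 5.17, 4.10 and 3.47. Adam12, a membrane metalloprotease gene (chromosome 7, 133484928 to 133833875), was at 17.1, 13.5 and 14.8 CPM in p53n and at 267, 274 and 279 CPM in BB-p53n DMSO. Tubb6, a beta-tubulin gene, was at 13.2, 11.6 and 12.3 CPM against 134, 143 and 130.2 CPM. For both genes every PDGF-BB library stood well above every p53n library, with log2 fold changes of 4.17 (SE 0.08) and 3.45 (SE 0.10).

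In the middle range, the rises named started from low but detected levels. Clic5, which encodes a chloride intracellular channel family protein found at actin-rich membranes (chromosome 17, 44445659 to 44591059), was at 0.833, 0.624 and 0.799 CPM in p53n and at 65.7, 69.7 and 65.1 CPM in BB-p53n DMSO. Pou3f1, a POU-domain transcription factor gene best known from Schwann cells that are about to myelinate (chromosome 4, 124550600 to 124554448), was at 1.74, 1.83 and 2.69 CPM against 136, 129.8 and 126 CPM. Itga8, the integrin alpha 8 gene (chromosome 2, 12111443 to 12306733), was at 3.99, 3.87 and 3.37 CPM against 149, 136 and 141 CPM. Each of the 3 was at 65.1 CPM or more in every PDGF-BB library and at most 3.99 CPM in every p53n library. Their log2 fold changes were 6.46 (SE 0.13), 5.97 (SE 0.12) and 5.24 (SE 0.10).

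Tmem173, the gene of the DNA sensing adaptor STING, rose from 2.43 ± 0.26 to 91.3 ± 4.89 CPM (log2 fold change 5.23). Egr1, an immediate early transcription factor gene, rose from 4.63 ± 0.494 to 102 ± 2.74 CPM (4.45). Slfn9, a Schlafen family gene on chromosome 11, was at 0.555, 1.29 and 1.43 CPM in p53n and at 92.0, 67.6 and 71.0 CPM in BB-p53n DMSO, while its relative Slfn8, looked up after these values were seen, had 0 counts and 1 count. In the lowest range, Lrrn4, a leucine-rich repeat membrane protein gene, rose from 0.17 ± 0.0429 to 16.7 ± 1.75 CPM and Fam196b from 0.484 ± 0.274 to 18.7 ± 0.805 CPM. The other leading rises there were the Y-linked genes given above.

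**Figure D2:**
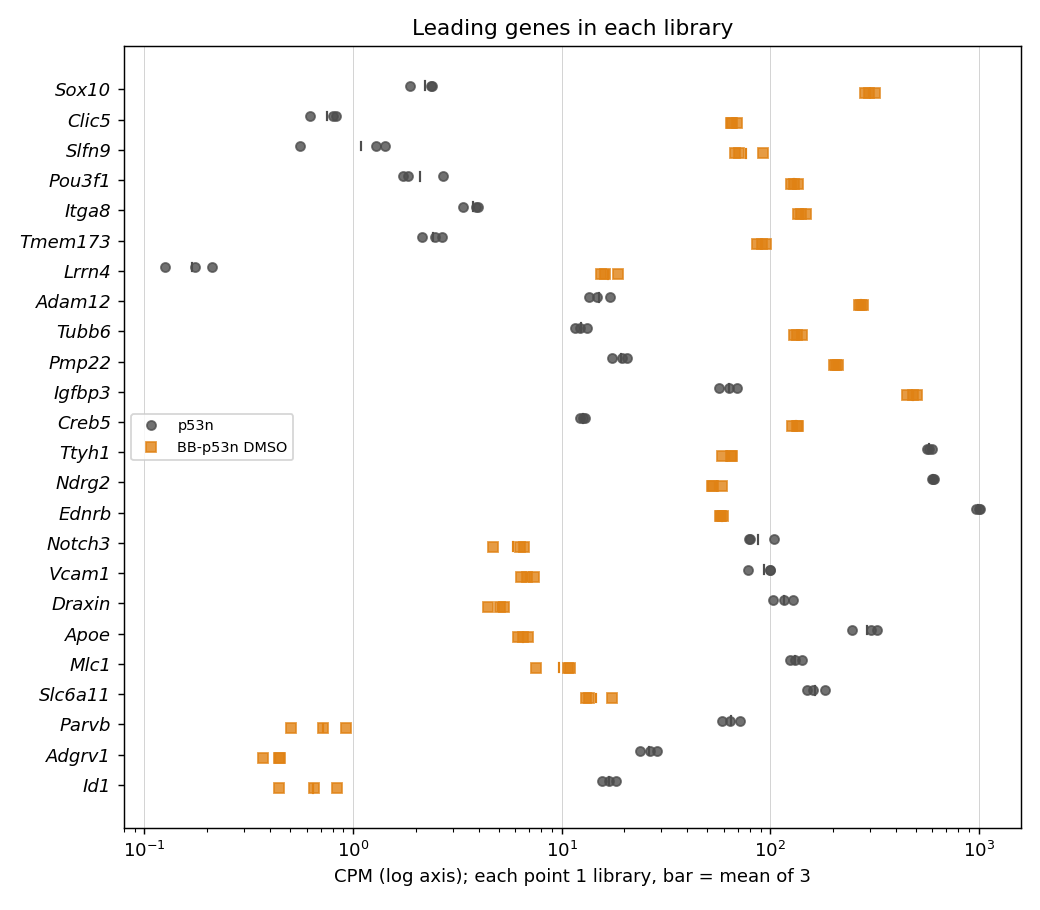
CPM on a log axis for 24 genes in the 3 p53n libraries (grey circles) and the 3 BB-p53n DMSO libraries (orange squares), with a vertical bar at each mean. The libraries of a group lie close together and the groups do not overlap for any gene shown, from Sox10 (2.21 against 299 CPM) to Id1 (16.9 against 0.643 CPM).

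Among genes of the highest range, Ednrb, the endothelin B receptor gene, which many glial progenitors and astrocytes express (chromosome 14, 104052061 to 104081838), was at 967, 1013 and 1007 CPM in p53n and at 58.3, 57.8 and 59.7 CPM in BB-p53n DMSO (log2 change -4.09, SE 0.07). Ndrg2, an astrocyte-enriched gene (chromosome 14, 52142728 to 52151615), was at 606, 599 and 612 CPM against 52.5, 53 and 58.5 CPM (-3.47, SE 0.08). Both falls were far larger than the median of chromosome 14, on which they lie. Ttyh1, a Tweety family membrane protein gene of neural progenitors, fell from 581 ± 17.2 to 63.3 ± 3.7 CPM. Enpp2, which encodes autotaxin, the enzyme that makes lysophosphatidic acid, fell from 538 ± 24.6 to 51.2 ± 1.54 CPM. Gpr17, whose receptor marks precursors committed to the oligodendrocyte fate, fell by 3.85 on the log2 scale.

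In the middle range, Apoe, the main lipid carrier of the brain (chromosome 7, 19430034 to 19433113), was at 247, 325 and 305 CPM in p53n and at 6.15, 6.57 and 6.91 CPM in BB-p53n DMSO (log2 change -5.48, SE 0.12). Draxin, a secreted axon guidance protein gene, fell from 116 ± 12.8 to 4.95 ± 0.446 CPM and Pgpep1, a peptidase gene, from 212 ± 3.92 to 10.1 ± 0.269 CPM. Notch3, a Notch receptor gene, fell from 88.0 ± 13.9 to 5.87 ± 1.03 CPM. Vcam1, a cell adhesion molecule gene, fell from 93.1 ± 12.4 to 6.85 ± 0.49 CPM, and Mlc1, a membrane protein gene of astrocytes, from 133 ± 9.06 to 9.75 ± 1.9 CPM. As background, Apoe, Mlc1, Vcam1 and Notch3 are known from astrocytes, neural stem cells or vessel walls.

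In the lowest range some genes fell close to the detection limit. Parvb, the gene of beta-parvin, which links integrins to actin (chromosome 15, 84116244 to 84199889), was at 58.6, 71.4 and 64.2 CPM in p53n and at 0.717, 0.503 and 0.925 CPM in BB-p53n DMSO (log2 change -6.50, SE 0.20). Adgrv1, a very large adhesion receptor gene, fell from 26.3 ± 2.39 to 0.421 ± 0.0439 CPM. Pla2g7, a secreted phospholipase gene, Cbs, the first enzyme of transsulfuration, and Grm3, a metabotropic glutamate receptor gene, fell by 8.63, 7.76 and 6.84 on the log2 scale.

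Rplp0 was the only ribosomal protein gene among the leaders and is an uncertain measurement. It encodes a stalk protein of the large ribosomal subunit and is often used to normalise expression. It was at 461, 401 and 415 CPM in p53n and at 41.5, 50.9 and 50.1 CPM in BB-p53n DMSO (log2 change -3.16). Its intronless copy Gm8730, looked up after these values were seen, was at 52.4, 49.5 and 44.0 CPM in p53n and at 258, 272 and 245 CPM in BB-p53n DMSO, a log2 fold change of 2.41 (adjusted p = 4.1e-15). The 2 reading frames, taken from the GENCODE transcripts on GRCm38, are identical at 942 of 954 bases (98.7%), with 12 mismatches and a longest identical run of 170 bases. No stretch of 60 bases holds more than 3 mismatches. The first that does, positions 388 to 447 of the Rplp0 reading frame, is shown to let a reader see how alike the genes are, with mismatched bases in capitals.
Rplp0: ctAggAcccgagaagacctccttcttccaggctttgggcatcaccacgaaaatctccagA
Gm8730: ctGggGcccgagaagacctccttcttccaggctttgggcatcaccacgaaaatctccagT

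Of the counts on either gene, 89.8%, 89.0% and 90.4% were assigned to Rplp0 in the p53n libraries and 13.8%, 15.7% and 17% in the BB-p53n DMSO libraries. In the inhibitor-treated libraries of the PDGF-BB line the share was 14.4%, 17.1% and 14.8%. Both groups of PDGF-BB cells thus lay far from the p53n cells in this share and near each other. The sum of both genes was 475 ± 34.1 CPM in p53n and 306 ± 15.1 CPM in BB-p53n DMSO, a smaller difference than Rplp0 alone. Among 79 tested Rpl and Rps genes, Rplp0 included, 12 were higher and 19 lower, 2 of these at least 2-fold, with a median log2 fold change of -0.06. Of 147 tested pairs of a gene and a copy named for it as a pseudogene, 7 were called in opposite directions and 1 of those differed at least 2-fold in both, Rps13 (-1.19) and Rps13-ps1 (4.49).

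The clustered protocadherins, cell surface proteins that neural cells express in varying combinations from alternative first exons, also differed between the cultures. They were looked at after Pcdhga11 appeared among the leading falls. Pcdhga11 was at 45.9, 42.8 and 37.1 CPM in p53n and at 0.418, 0.474 and 1.02 CPM in BB-p53n DMSO. Pcdhga9 went the other way, with 2.50, 1.79 and 1.43 CPM against 21.4, 23.3 and 23.7 CPM. In the alpha cluster Pcdha1 was at 10.6 ± 0.854 against 0.203 ± 0.179 CPM and Pcdha11 at 0.565 ± 0.216 against 4.42 ± 0.168 CPM. Of 53 tested members 9 were higher and 29 lower. The alpha and the gamma genes each share their last exons, and how the counting split reads there is not known. The inhibitor-treated cells had 0.378 CPM of Pcdhga11 and 21.2 CPM of Pcdhga9, close to the other PDGF-BB libraries.

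**Figure D3:**
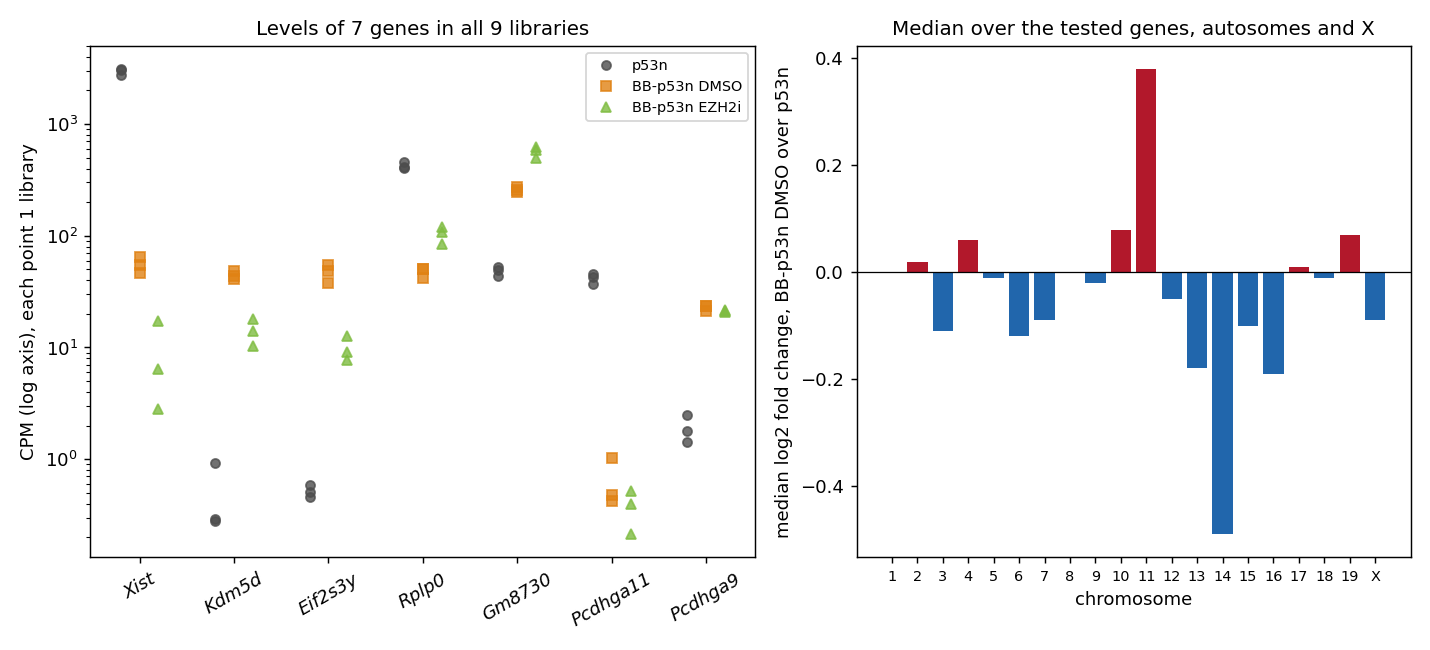
Left, CPM on a log axis of 7 genes in each of the 9 libraries (grey circles p53n, orange squares BB-p53n DMSO, green triangles BB-p53n EZH2i). Right, the median log2 fold change of BB-p53n DMSO over p53n among the tested genes of each autosome and the X chromosome; of these, it was highest on chromosome 11 (0.38) and lowest on chromosome 14 (-0.49). Both groups of PDGF-BB libraries lie on the same side of p53n for each gene on the left.

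Gene lists were then read for what the cells secrete and sense. Of 56 tested genes of secreted growth factors and cytokines, 25 were higher and 17 lower, with a median log2 fold change of 0.45 against -0.02 over all genes. Fgf1, a fibroblast growth factor gene, was at 13.9, 10.9 and 13 CPM in p53n and at 66.8, 67.2 and 67.0 CPM in BB-p53n DMSO. Lif, a cytokine gene, was at 0.104, 0.458 and 0 CPM against 3.52, 3.08 and 3.58 CPM. Il18, an interleukin gene, fell from 76.3, 60.9 and 71.2 CPM to 13.6, 11.8 and 13.8 CPM, and Angpt1, an angiopoietin gene, had a log2 fold change of -2.26. The groups did not overlap for any of the 4.

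Many G protein-coupled receptor genes were lower. Of 134 tested, 37 (27.6%) were higher and 62 (46.3%) lower, with a median of -0.34. Among all genes between 1 and 3 log2 CPM the shares were similar, 27.4% higher and 44.3% lower, and the list was not matched by level. The summed level of the receptor genes was 6113 to 6506 CPM in the p53n libraries and 3341 to 3400.1 CPM in the BB-p53n DMSO libraries. In p53n Gpr17 gave 1904 and Ednrb 995 CPM of this sum in the mean. Mc5r, a melanocortin receptor gene, fell from 13.7, 13.7 and 13.3 CPM to 0.358, 0.977 and 0.493 CPM. In the other direction Fzd4, a Frizzled receptor gene of the Wnt pathway, rose from 5.87, 6.66 and 5.93 CPM to 53.5, 55.7 and 54.1 CPM, and Chrm3, a muscarinic acetylcholine receptor gene, rose by 3.26 on the log2 scale.

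Transporter and junction genes showed large single changes without a common direction. Of 257 tested solute carrier genes, 93 were higher and 91 lower, and with upper quartile scaling 74 were higher and 112 lower. Slc6a11, a GABA transporter gene of astrocytes, was at 151, 183 and 161 CPM in p53n and at 13.1, 13.6 and 17.4 CPM in BB-p53n DMSO. Slc25a10, a mitochondrial dicarboxylate carrier gene, rose from 5.45, 5.79 and 4.75 CPM to 34.5, 36.8 and 32.5 CPM. Among 23 tested connexin, claudin and tight junction genes, 6 were higher and 12 lower. The gap junction genes moved apart. Gja1, connexin 43, fell from 6.14, 9.66 and 9.17 CPM to 0.209, 0.0888 and 0.247 CPM, while Gjc1, connexin 45, rose by 3.13 and Gjb1, connexin 32, by 2.35 on the log2 scale.

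Among 75 tested immunoglobulin, leucine-rich repeat and synaptic adhesion genes, 27 were higher and 33 lower. The balance turned to 30 and 27 without the X, Y and mitochondrial chromosomes, which also takes out any members there. Lrrn4 led the rises, and Cntn3, a contactin gene, rose from 4.16, 5.25 and 4.08 CPM to 25.5, 25.1 and 26.2 CPM. Cntnap5b, a contactin-associated protein gene, fell by 4.12 and Slitrk6 by 2.58 on the log2 scale.

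In several transcription factor families the share called higher stood above the 35.3% of all genes and the 39.9% of protein-coding genes, a description without a test. Of 102 tested homeobox genes outside the Hox clusters, 52 (51%) were higher and 28 lower, with a median log2 fold change of 0.58. Pou3f1 led them. Nkx6-2, a homeobox gene of the oligodendrocyte lineage, fell from 6.18, 6.45 and 6.39 CPM to 0.149, 0.178 and 0.0617 CPM. Of 25 forkhead genes 15 (60%) were higher and 6 lower. The lower count was 3 without chromosomes 11, 14, X, Y and MT, whose members, among them Foxj1, leave the list. Foxd1 rose by 3.89, Foxd2 by 4.01, and Foxn3 fell by 1.37.

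Of 42 AP-1, CREB and MAF genes, which include the FOS and JUN partners that growth factors induce, 23 (54.8%) were higher and 10 lower, with a median of 0.65. Creb5 was at 12.3, 12.9 and 12.7 CPM in p53n and at 136, 127 and 135 CPM in BB-p53n DMSO. Creb3l1, a membrane-bound factor of the secretory pathway, rose by 4.35. Bach1, a repressor that senses heme, fell from 80.6 to 48.8 CPM in the mean, and Nfil3 fell by 0.85 on the log2 scale. Of 19 Kruppel-like and Sp genes 10 were higher and 5 lower. Klf10 rose from 27.6, 26.7 and 27.2 CPM to 141, 142 and 139 CPM, and Klf15 fell by 2.78.

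T-box, GATA, RUNX and TEAD genes had the highest median of the transcription factor families, 1.23, with 13 of 22 higher and 5 lower. Gata6 rose from 0.659, 0.624 and 0.421 CPM to 11.1, 11.6 and 11.4 CPM. Tbx3 had 2 counts in all of p53n and 379 in all of BB-p53n DMSO. The TEAD genes, DNA-binding partners of YAP, changed in both directions. Tead1 rose from 90.8 ± 4.83 to 148 ± 4.9 CPM and Tead4 from 0.204 ± 0.105 to 0.984 ± 0.122 CPM. Tead2 fell from 32.9, 32.8 and 30.1 CPM to 5.17, 4.97 and 4.56 CPM, and Tead3 fell by 1.84 on the log2 scale.

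The basic helix-loop-helix genes were closer to the background, with 24 of 59 higher and 19 lower, and 20 and 26 with upper quartile scaling. Id1, an inhibitor of these factors that BMP signalling induces, was at 16.9, 15.7 and 18.2 CPM in p53n and at 0.836, 0.444 and 0.648 CPM in BB-p53n DMSO. Hes5, a Notch effector gene, fell from 56.7, 63.9 and 59.1 CPM to 4.81, 4.94 and 6.32 CPM. Twist1 had 1 count in all of p53n and 417 in all of BB-p53n DMSO, and Tal1 rose from 0.252 to 5.81 CPM in the mean. Of 38 nuclear receptor genes 16 were higher and 10 lower, and the lower count was 5 to 6 when any 1 p53n library or BB-p53n DMSO replicate 1 was left out. Rxrg, a retinoid X receptor gene of the oligodendrocyte lineage, fell from 6.73, 5.70 and 6.39 CPM to 0.448, 0.444 and 0.925 CPM. Thra, a thyroid hormone receptor gene, fell by 0.77 on the log2 scale.

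The largest one-sided family was that of the genes named Zfp, most of which encode C2H2 zinc finger proteins and many of which carry a KRAB domain, a recruiter of repressive chromatin to transposable elements. Of 344 tested, 38 (11%) were higher and 229 (66.6%) lower, with a median log2 fold change of -0.61. Their summed level was 14712, 14826 and 15361 CPM in p53n and 11563, 10952 and 11149.8 CPM in BB-p53n DMSO, so the groups did not overlap. At an average of at least 1 log2 CPM, 68.2% of Zfp genes were lower against 30.8% of other protein-coding genes. Under 1 log2 CPM, 6 of 17 Zfp genes (35.3%) were lower against 39.9% of the others. Between 1 and 3 log2 CPM, 52 of 66 were lower and 2 higher. Between 3 and 5, 107 of 157 were lower and 16 higher, and between 5 and 7, 59 of 89 were lower and 13 higher. At 7 or more, 5 of 15 were lower and 5 higher.

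By chromosome, more Zfp genes were lower than higher on each of the 4 looked at and on the rest together. On chromosome 13, 28 of 32 were lower and 1 higher, while of the other protein-coding genes there 38.5% were lower. On chromosome 7, 59 of 87 were lower, on chromosome 17, 31 of 45, and on chromosome 8, 18 of 24. On the remaining chromosomes 93 of 156 were lower. Zfp811 on chromosome 17 fell from 72.8, 66.4 and 75.0 CPM to 1.85, 1.15 and 2.62 CPM, and Zfp804a from 20.6, 27.1 and 25.4 CPM to 1.22, 0.355 and 0.493 CPM. Zfp469 rose from 27, 24.0 and 18.8 CPM to 207, 205 and 209 CPM and Zfp367 by 2.39 on the log2 scale. Most changes were smaller, and 100 of the 229 lower genes fell at least 2-fold. Many of these genes are similar in sequence, so the split of reads between close relatives is uncertain.

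**Figure D4:**
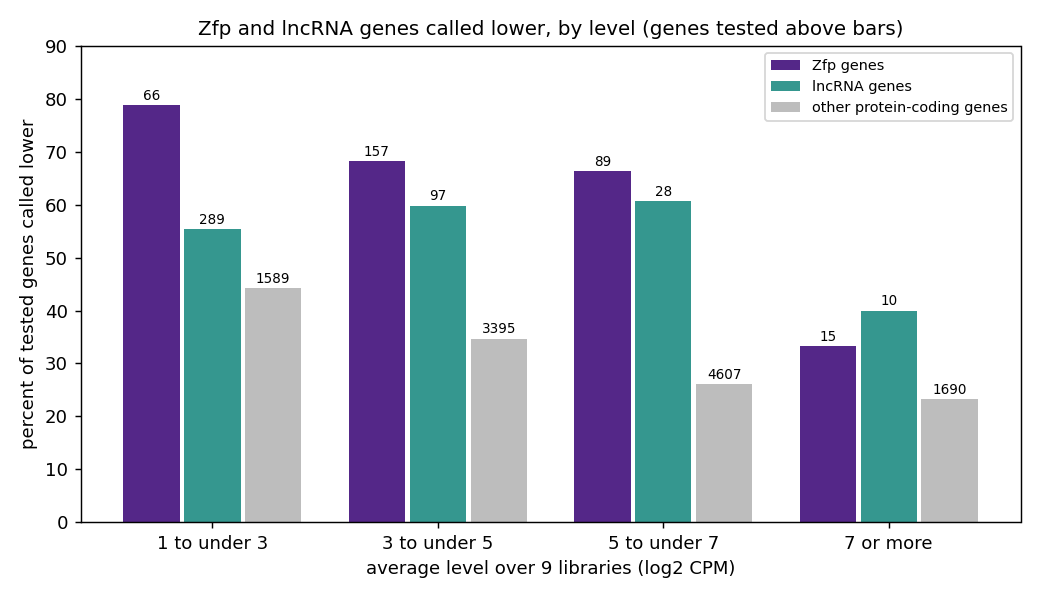
Percent of tested genes called lower in BB-p53n DMSO, by average level in log2 CPM, for Zfp genes (purple), lncRNA genes (green) and other protein-coding genes (grey), with the number tested above each bar. In the ranges from 1 to 7 the Zfp share runs from 78.8% to 66.3% and that of other protein-coding genes from 44.2% to 26.1%.

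Many long noncoding RNA genes were lower too. Of 1442 tested, 170 (11.8%) were higher and 690 (47.9%) lower. At an average of at least 1 log2 CPM 89 of 424 were higher and 239 (56.4%) lower. Of protein-coding genes outside the Zfp list at that level, 30.8% were lower. Most tested noncoding genes, 1018, lay under 1 log2 CPM, where 44.3% were lower against 39.9% of those protein-coding genes. Without Xist their summed level was 9891, 10261 and 10285 CPM in p53n and 7488, 6809 and 7092 CPM in BB-p53n DMSO. Miat, a nuclear noncoding RNA of neural cells, was at 181, 196 and 191 CPM in p53n and at 19.1, 14.7 and 17 CPM in BB-p53n DMSO. Mir124a-1hg, the host transcript of the neuronal microRNA miR-124, fell by 3.23, and Cep83os by 4.82. Neat1, the scaffold RNA of paraspeckles, went the other way, with 7.74, 8.70 and 7.28 CPM against 77.9, 61.5 and 69.3 CPM, and Foxd2os rose by 2.60 on the log2 scale. Reads were counted without regard to strand, so antisense transcripts such as Cep83os cannot be told apart from genes they overlap. Foxd2os (chromosome 4, from 114766424) does not overlap Foxd2, which ends at 114766070.

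Among the lists of cell machinery, the proteasome stood furthest toward higher levels. Of 47 tested genes, 32 (68.1%) were higher and 6 lower, with a median of 0.35, and 4 of the higher and 3 of the lower genes differed at least 2-fold. Without chromosomes 11, 14, X, Y and MT, and so without the list's members there, 1 gene was lower. Leaving out p53n replicate 1 gave 3 lower genes. Psmd3, a subunit of the regulatory particle, was at 115, 117 and 112 CPM in p53n and at 262, 271 and 254 CPM in BB-p53n DMSO. The list, drawn by symbol, also held Psmc3ip, a recombination protein gene, which rose by 2.89. Psme1, a subunit of the interferon-inducible activator, fell from 39.5, 34.8 and 33.9 CPM to 15.8, 19.1 and 19.1 CPM. Psmd3 and Psmc3ip lie on chromosome 11 and Psme1 on chromosome 14, each changed in the direction of its chromosome's median. Of 84 chaperone genes, 46 (54.8%) were higher and 20 lower, among them Hspa14, which rose by 1.97, and Dnajc28, which fell by 1.90. Of 105 splicing and RNA-binding regulator genes, 53 (50.5%) were higher and 30 lower. Among all genes the share higher was 48.3% between 5 and 7 log2 CPM and 56.4% at 7 or more. These lists were not matched by level. Ptbp1, a splicing repressor that falls when neural cells mature, rose from 90.6, 98.3 and 85.3 CPM to 246, 258 and 253 CPM, and Celf3 fell by 2.52.

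The lysosome list went the opposite way, with 15 of 64 higher (23.4%) and 34 lower. Ctsf, a cathepsin gene, fell from 57.8, 57.2 and 52.4 CPM to 8.36, 11.4 and 11.8 CPM, whereas Gaa, lysosomal alpha-glucosidase, rose from 86.0, 95.6 and 78.2 CPM to 149, 165 and 148 CPM. Of 122 vesicle trafficking genes 32 were higher and 55 lower. Stxbp5l fell by 4.44, Syt13 fell by 4.22 and Sytl2 rose by 2.49. Of 80 fatty acid handling genes 22 (27.5%) were higher and 37 lower. Besides Apoe, Acot6, an acyl-CoA thioesterase gene, fell by 5.68 on the log2 scale, whereas Acsl4, which activates arachidonic acid, rose from 43.7, 45.5 and 47.6 CPM to 251, 212 and 217 CPM. Of 71 phospholipase, phospholipid and eicosanoid genes 23 were higher and 31 lower. Ptgs2, the inducible cyclooxygenase gene, fell from 17.4, 18.6 and 18.5 CPM to 0.119, 0.118 and 0.154 CPM.

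Cytoskeletal and Ras family genes changed in both directions. Of 82 actin, tubulin, myosin and intermediate filament genes 37 were higher and 26 lower. Myo5b, a motor of recycling endosomes, rose from 0.59, 1.5 and 0.799 CPM to 32.8, 34.3 and 34.9 CPM, and Myo6 fell from 280.2, 296 and 287 CPM to 84.0, 85.3 and 84.7 CPM. Of 70 Ras family and RGS genes 29 were higher and 19 lower, with Rassf3 higher by 3.16 and Diras1 lower by 3.15 on the log2 scale.

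Lists for second messengers, phosphatases, antioxidants, cilia and the clock lay near the background or turned in balance with the scaling. Of 55 phosphodiesterase and cyclase genes 23 were higher and 21 lower, and with upper quartile scaling 21 and 24. Pde1b, a calcium-dependent phosphodiesterase gene, fell from 76.1, 77.6 and 76.5 CPM to 3.49, 4.09 and 2.81 CPM, while Pde8a rose by 2.59. Of 46 tyrosine phosphatase and non-receptor kinase genes 16 were higher and 18 lower, and without p53n replicate 1 15 and 12. Yes1, a SRC family kinase gene, fell by 2.36. Of 45 glutathione, thioredoxin and NRF2 target genes 19 were higher and 16 lower, and with upper quartile scaling 17 and 18. Gpx3, a secreted glutathione peroxidase gene, fell from 56.7, 44.4 and 44.0 CPM to 1.64, 2.34 and 2.84 CPM, and Gsr, glutathione reductase, rose by 1.68. Of 92 primary cilium genes 32 were higher and 33 lower, and without p53n replicate 3 35 and 28. Rpgrip1l, a ciliary transition zone gene, fell by 1.71.

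Lists of genes known to respond to culture conditions changed in both directions. Of 22 cAMP response genes, which forskolin in the medium can induce, 14 (63.6%) were higher and 4 lower, with a median of 0.51. Vgf, a neuropeptide precursor gene, rose from 2.39, 2.12 and 1.22 CPM to 25.9, 31.9 and 25.2 CPM, and Pde4d fell by 0.75 on the log2 scale. Of 23 YAP and TEAD target genes, which respond to cell spreading and density, 14 (60.9%) were higher and 6 lower. Igfbp3, an IGF-binding protein gene on chromosome 11, was at 69.4, 57.0 and 63.4 CPM against 456, 504 and 487 CPM. Ccn1, a direct YAP target gene, fell from 19.9, 23.0 and 21.1 CPM to 5.40, 6.31 and 5.30 CPM. Of 22 circadian clock genes 9 were higher and 8 lower, with 8 and 9 under upper quartile scaling. Without chromosomes 11, 14, X, Y and MT, which also takes out members such as Hlf, 5 were higher and 7 lower. Hlf, a clock output gene, rose by 2.12 and Cry2 fell by 1.09. Of 19 metallothionein and trace metal genes 5 were higher and 9 lower, and 2 were higher with upper quartile scaling. The labels give no density, passage or time since feeding.

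**Figure D5:**
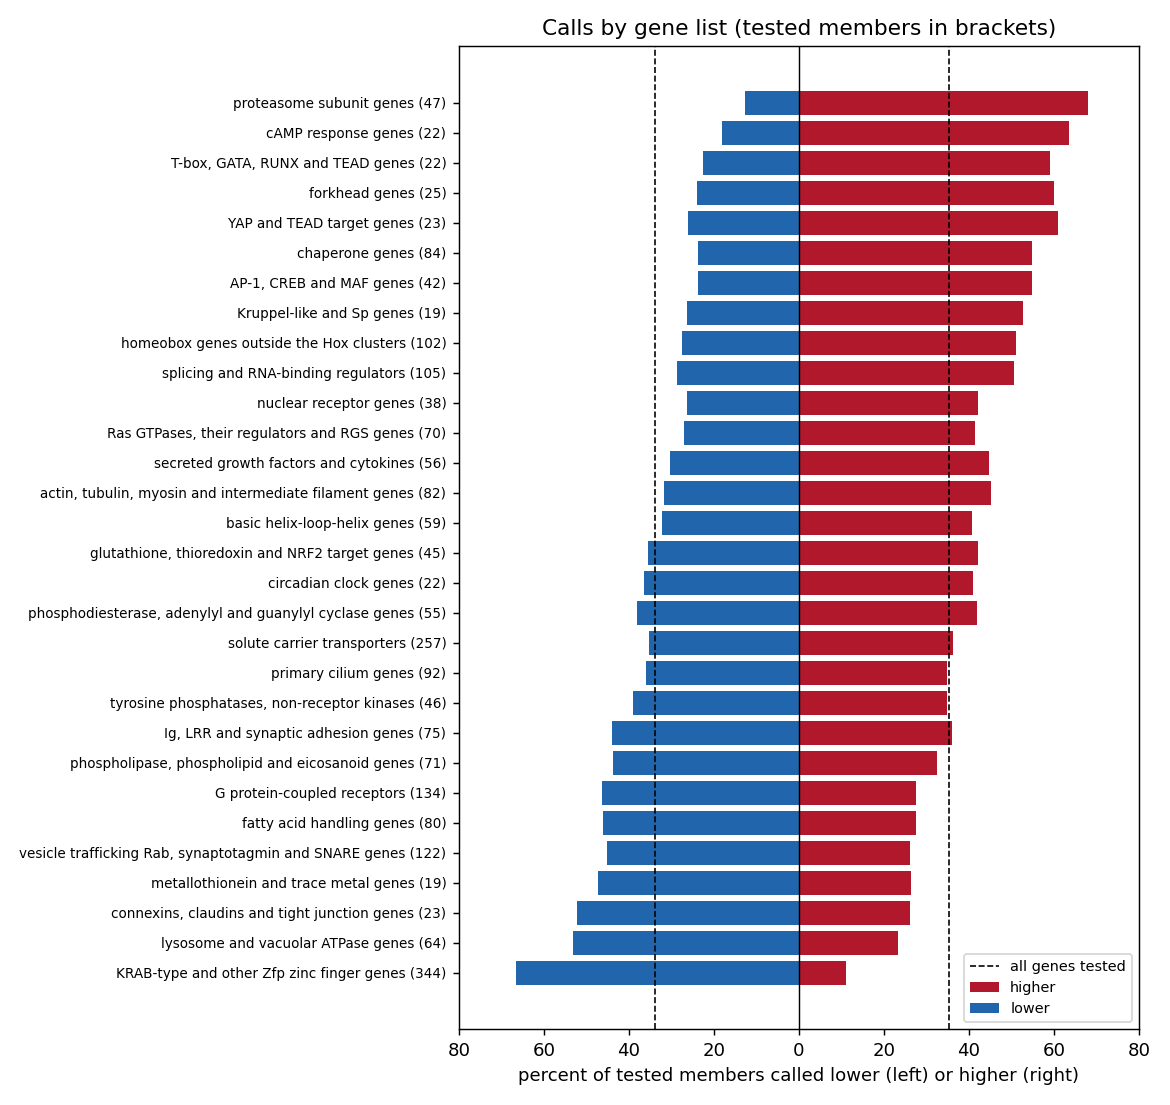
For each gene list reported here with at least 15 tested members (number in brackets), the percent called higher (red, right) and lower (blue, left) in BB-p53n DMSO. Dashed lines mark all tested genes, 35.3% higher and 34% lower; the proteasome list (68.1% higher) and the Zfp list (66.6% lower) lie at the ends.

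Markers of cell types that such a culture could hold were counted as well. All 10 astrocyte markers were called, 9 lower and 1 higher, with a median of -1.75. Gfap, the astrocyte intermediate filament, was at 8.71, 17.4 and 13.9 CPM in p53n and at 1.25, 1.07 and 0.709 CPM in BB-p53n DMSO, and Aqp4, the astrocyte water channel, at 2.98, 5.12 and 5.26 CPM against 0.0896, 0.0296 and 0.0925 CPM. Sox9, a glial transcription factor gene, on chromosome 11, was the marker called higher, with a log2 fold change of 0.35. In bulk RNA, fewer cells of a type and less RNA per cell cannot be told apart. Of 10 tested neuron markers 3 were higher and 5 lower, and with upper quartile scaling 1 was higher. Slc1a3 and S100b, both also expressed in OPCs, fell by 0.67 and 1.12.

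Schwann cell and neural crest markers went the other way. Of 10 tested, 7 were higher and 1 lower, and the lower count was 0 to 2 when 1 library was left out. Their summed level was 478 to 493 CPM in p53n and 934 to 968 CPM in BB-p53n DMSO. Much of this sum came from Sox2, also a gene of neural progenitors, at 256 ± 5.81 and 267 ± 9.08 CPM and not called, and from Gap43, at 168 ± 13.4 and 255 ± 7.68 CPM. Pmp22, a peripheral myelin protein gene on chromosome 11, was at 20.6, 19.6 and 17.5 CPM against 202, 212 and 208 CPM. Egr2, a transcription factor gene of Schwann cell myelination, was at 0.555, 0.416 and 0.673 CPM against 9.35, 9.09 and 8.88 CPM. Tfap2a, a neural crest factor gene, rose from 0.633 ± 0.264 to 9.93 ± 0.597 CPM. Foxd3, a neural crest transcription factor gene, was low, at 34 counts over the 3 PDGF-BB libraries against 2 in p53n. Pou3f1, Gap43, Erbb3 and Sox2 on this list are also expressed in the oligodendrocyte lineage.

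Marker lists of other cell types had low summed levels, and some differed between the groups. The microglia markers summed to 1.42 to 2.27 CPM in p53n and 2.07 to 2.87 CPM in BB-p53n DMSO, and C1qa and C1qc had 0 counts in all 6 libraries. The mural and fibroblast markers summed to 2.99 to 4.54 CPM against 1.97 to 3.17 CPM. The endothelial markers summed to 15.2 to 18.8 CPM against 19.1 to 22.3 CPM, and Flt1 gave 8.20 to 10.6 CPM and Kdr 5.89 to 7.37 CPM of the p53n sum, while Cdh5 and Cldn5, which define endothelial cells, had at most 0.0597 CPM in any of the 6 libraries. The skeletal muscle and mesoderm markers summed to 1.85 to 2.54 CPM in p53n and 5.27 to 6.78 CPM in BB-p53n DMSO. Of 4 tested 1 was higher and 1 lower: Pax3, which neural crest cells also express, had 5 counts in all of p53n and 426 in all of BB-p53n DMSO, and Myh3, an embryonic myosin gene, fell from 1.26 ± 0.232 to 0.33 ± 0.0733 CPM. The ependymal and choroid markers summed to 12.1 to 13.1 CPM against 5.64 to 7.34 CPM. Most of this was Foxj1, a transcription factor gene of motile cilia, which fell from 11.6 ± 0.367 to 5.22 ± 0.696 CPM. Of 3 tested, Foxj1 was called lower and Dnah11 higher, the latter at 0.228 ± 0.131 against 0.735 ± 0.241 CPM. Without BB-p53n DMSO replicate 3 the higher count was 0.

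Within this wide difference 823 tested genes were not called and had a 95% interval of the log2 fold change within 0.25 of 0. The 5 most abundant were Eif4g2, a translation factor gene, Nedd4, a ubiquitin ligase gene, Map2, a microtubule-associated protein gene, Sptan1, the alpha II spectrin gene, and Olig1. Map2 was at 1477, 1485 and 1506 CPM in p53n and at 1491, 1359.6 and 1420.3 CPM in BB-p53n DMSO. Olig1 was at 1054, 1007 and 938 CPM against 1016, 1023 and 1017 CPM. The groups overlapped for both. Nedd4 (log2 fold change -0.09) was called lower with upper quartile, total-count and DESeq2 scaling, and Map2 (-0.06) with upper quartile scaling. Eif4g2 (0.11) was called higher without p53n replicate 1 and without p53n replicate 3, with log2 fold changes of 0.20 and 0.22.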

How the data were processed

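RNA was read by sequencing of polyadenylated transcripts. Per the labels' protocols, 500 ng of total RNA entered each library, prepared with Kapa's mRNA HyperPrep kit and read as 150 bp pairs. The authors deposited raw counts of fragments per gene. Per the file headers, featureCounts 1.6.3 counted them over exons of Ensembl release 108 (GRCm39) with both ends mapped, a mapping quality of at least 20 and no strand option. The submitters' processing notes name Trimmomatic and Subread, with versions not given in the sources used here.

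Of 56980 gene identifiers, 52073 (91.4%) had a symbol. Symbols, classes and transcript sequences came from GENCODE on GRCm38, joined by identifier, and coordinates from the deposited table. edgeR 4.0.16 (R 4.3.3) filtered genes with filterByExpr, scaled with TMM and fitted 1 robust quasi-likelihood model with group as the only term to all 9 libraries, so that they share 1 estimate of spread (common coefficient of variation 0.081). All adjusted p-values are Benjamini-Hochberg values of this test over 17001 genes, called under 0.05. Levels are TMM-scaled CPM. Each library counted as 1 replicate. Libraries of a group differed by more than sampling noise (median chi-square per gene 1.49 to 2.43), which does not show that they came from separate cultures. Counting intervals cover counting error only, because reads carry no molecular identifiers.

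Genes were named by rule: sex-linked and manipulated genes, the 6 largest rises and 6 largest falls in each range of average level (3 to 5, 5 to 7, and 7 or more log2 CPM) among called protein-coding genes whose groups do not overlap, up to 2 rises and 2 falls per list, 4 noncoding genes each way, all marker genes, and the 5 most abundant unmoved genes. Not all are printed, and others are marked as looked up later. The 42 gene lists, the rule and the comparison were chosen with earlier results of these data known; 1 of the lists is not reported here. In simulated counts with 200 changed genes of 17001, 86.6% of 1.5-fold, 100% of 2-fold and 98.5% of 4-fold changes were recovered and 18 unchanged genes called. The changed genes lay above 1 log2 CPM and moved in random directions. In the data 69.3% of genes were called, so the simulation does not check genes at lower levels or the scaling. Alternatives were DESeq2 1.42.0, other scaling, no filter, fewer libraries, a replicate block, a test against 1.5-fold, and leaving out chromosomes.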

Additional observations from a re-analysis of the deposited data

How the results depend on the processing

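Higher and lower counts stayed within 1.5 times their values of 6008 and 5772 under every alternative run except the test against a 1.5-fold change (glmTreat), which called 2806 genes higher and 3172 lower because it asks for more than a difference from 0. Leaving out 1 library gave 5724 to 6342 higher and 4862 to 5499 lower, and, at least 2-fold, 2125 to 2405 and 2618 to 3043. Upper quartile factors moved the median of all genes by -0.147 on the log2 scale and gave 4930 higher and 6967 lower (41.4% of calls higher against 51%), so small differences depend on the scaling. DESeq2 gave 5681 and 5888. Leaving out chromosomes 11, 14, X, Y and MT, a choice made after seeing the data, also took their genes out of the counts and gave 5611 and 4447. Same-numbered libraries did not deviate together (correlations -0.225, 0.047 and -0.038), so replicate numbers were not taken as pairs; with a replicate block 5962 and 5703 genes passed, and 11580 genes of 11780 kept both call and direction. Of 185 named genes, 166 kept their call under every alternative run and no value reversed. The balance of higher and lower calls turned under at least 1 alternative in 9 of 42 lists. No batch or date is in the labels. Genes under 1 log2 CPM were called less often, and 3 counts, 0.0888 to 0.126 CPM, limit what a library can show.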

Other observations

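The other gene classes of the annotation gave a background for the noncoding genes. Pseudogenes did not share their balance: of 1108 tested, 361 (32.6%) were higher and 211 (19%) lower, with a median log2 fold change of 0.13. Mitochondrially encoded genes were lower or not called, with 0 of 26 higher and 13 lower, beside the smaller share of mitochondrial counts in the PDGF-BB libraries. The inhibitor-treated PDGF-BB libraries had 7867 ± 258 CPM (SD, n = 3) of summed Zfp genes, below both other groups in every library.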
